A study of Mus musculus with 41 samples.

Results

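The livers described here came from 22 diet-induced obese (DIO) male mice, 11 given FGF21 and 11 given saline vehicle, out of 41 livers of both sexes in the series. They were chosen by the sex and treatment in the sample labels, and no measured value entered that choice. All 22 were C57B/6J males, the spelling in the labels, housed singly and fed a 60% high-fat diet for 10 weeks from 10 weeks of age, with food available throughout. Both groups received 2 i.p. injections, the first before the dark phase and the second after the return of light, of either recombinant human FGF21 at 0.1 mg/kg or saline, and livers were taken 2 hours after the second. The comparison asked what a short exposure to circulating FGF21 did to hepatic mRNA in males. As a model it was limited to whole liver at 1 dose and 1 time of day, in obese animals of 1 strain, and a direct action on liver could not be told apart from one relayed by other organs.

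Fibroblast growth factor 21 is a hormone made largely by hepatocytes in response to fasting, protein shortage, sugar and cellular stress. It acts on cells that carry both an FGF receptor, chiefly FGFR1, and the coreceptor β-Klotho, encoded by Klb, through which the RAS and MAP kinase cascade switches on immediate early genes. In rodents its pharmacological effects include lower hepatic triglyceride, higher energy expenditure and greater insulin sensitivity, and many of these are relayed by adipose tissue and brain, since hepatocytes carry Klb but little Fgfr1.

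After FGF21, no gene differed from vehicle at an adjusted p under 0.05. The smallest p values included higher means of Slc30a1, the zinc exporter of the plasma membrane, and of Igfbp1, a secreted binding protein for insulin-like growth factors, with log2 fold changes of 0.36 (SE 0.079) and 1.74 (SE 0.44) in 11 against 11 livers. They were joined by lower means of Pan2, the catalytic subunit of a deadenylase, at -0.70 (SE 0.16), and of Aacs, which activates the ketone body acetoacetate for lipid synthesis, at -0.84 (SE 0.20). The metallothioneins Mt1 and Mt2, which bind zinc and copper, had higher means in FGF21-treated males, although Mt1 stood at 0.62 (p = 0.188) without 3 vehicle-treated livers that stood apart. The genes of cholesterol synthesis had lower means in 21 of 23 cases, where 48.4% of all genes had a higher one. Their median of -0.27 was 0.019 without another 3 such livers. Because no gene met the threshold, each of these is given below as a measured level with its error and not as a change.

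Raw counts per liver totalled from 2425623 to 4168270 with vehicle and from 1902687 to 3871421 with FGF21. Total count, number of genes detected, share of the 10 most abundant genes and share of the mitochondrial genome did not separate the treatments (adjusted p = 0.704 for each, permutation tests). Vehicle-treated male 11 had the lowest mitochondrial share of the 22 livers, 16.3%, and the lowest share of the 10 most abundant genes, 25.1%. Without it the log2 fold changes of Egr1, Junb and Mt2 were 0.21, 1.21 and 1.82, against -0.14, 0.92 and 1.52 with all livers. Hepatocyte markers such as Alb and Ttr summed to 34894 to 41527 CPM (counts scaled to library size, with TMM factors) with vehicle and to 33737 to 44479 CPM with FGF21, so that the tissue label and the markers matched. Of 7 acinar pancreas markers, 4 (Amy2b, Cela2a, Ctrb1, Pnlip) had 0 counts in all 22 livers. The sum of the list, in which Cela1 alone passed the filter, was 15.5 to 75.1 CPM with vehicle and 27.5 to 107 CPM with FGF21. Of 6 muscle markers 4 (Ckm, Tnnt3, Acta1, Myh4) had 0 counts, and the list summed to at most 2.37 CPM. No pair of livers of the same group agreed within sampling noise, and pairs across groups were not compared.

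Some vehicle-treated livers stood apart from the rest. On the first principal component of the 22 livers, with 11.4% of the variance, vehicle-treated males 1, 8 and 3 had the lowest scores, of -42.8, -32.9 and -23.05, and on the second, with 9.66%, vehicle-treated males 7, 5 and 6 did, at -32.95, -30.4 and -24.01. The first was led by Hsd3b5, an androgen-dependent steroid dehydrogenase of male liver, and by major urinary protein genes. The second was led by Snrpf, Sucnr1 and Saa2. The mean scores of the treatments differed by 9.06 on component 1 (p = 0.253), by 13.1 on component 2 (p = 0.0655) and by 6.73 on component 3 (p = 0.256), permutation tests with adjusted p = 0.256, 0.196 and 0.256. Values without either trio of vehicle-treated livers, a choice made after seeing the data, are given below for genes and lists whose value they changed most. Only vehicle-treated livers were left out. FGF21-treated males 1, 5 and 7, with the next lowest scores on component 1 (-19.7, -12.9 and -11.1), stayed in. Leaving livers out of 1 group by score shifts the fold changes by itself, so the p values of these settings are descriptive. Of the 47 pathway genes with an unadjusted p under 0.05, 24 kept the sign and such a p without males 5, 6 and 7, 33 without males 1, 3 and 8, and 15 in both cases. What set these livers apart was not tested.

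**Figure D1:**
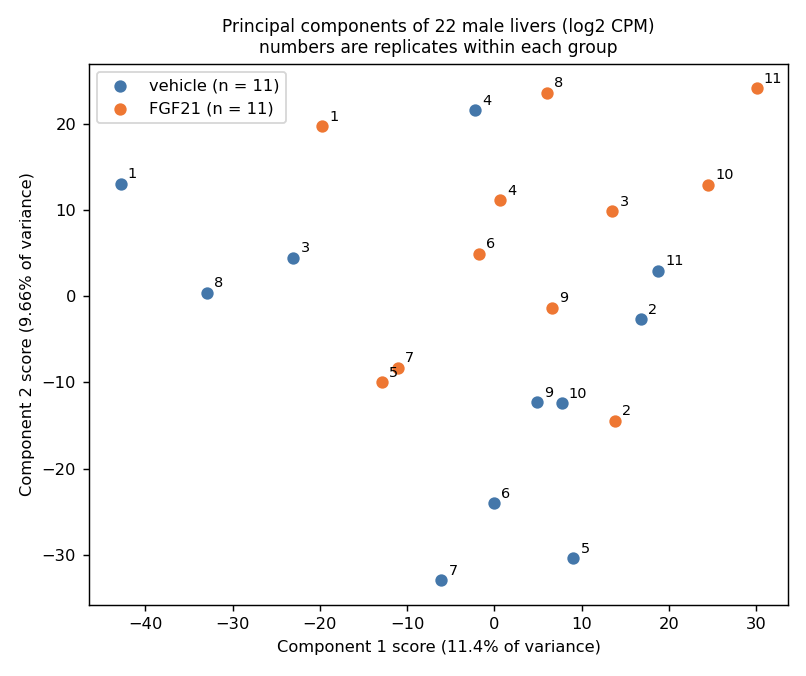
Scores of the 22 male livers on principal components 1 (x axis) and 2 (y axis) of log2 CPM, 1 point per liver, numbered by replicate within vehicle (blue) and FGF21 (orange). Vehicle-treated males 1, 3 and 8 lie to the left and vehicle-treated males 5, 6 and 7 at the bottom, and the remaining livers of both groups overlap.

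Across the transcriptome, 13185 genes passed the filter, and 0 (0%) had an adjusted p under 0.05 or under 0.10 (edgeR quasi-likelihood test, Benjamini-Hochberg). The smallest adjusted p was 0.388, shared by 22 genes. At an unadjusted p under 0.05 there were 1045 genes (7.93%), 422 with a higher mean in FGF21-treated males (3.2%) and 623 with a lower one (4.73%). Without vehicle-treated males 5, 6 and 7 the same count was 690 genes, 465 of them among the first set, and without vehicle-treated males 1, 3 and 8 it was 1188, with 653 shared. limma-voom gave 1087 and the Wald test of DESeq2 1087 genes at that level, with 0 past the adjusted threshold by either tool. The share of genes in which all 11 livers of one group lay above all 11 of the other was 0%. Below, p is unadjusted unless it is called adjusted.

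**Figure D2:**
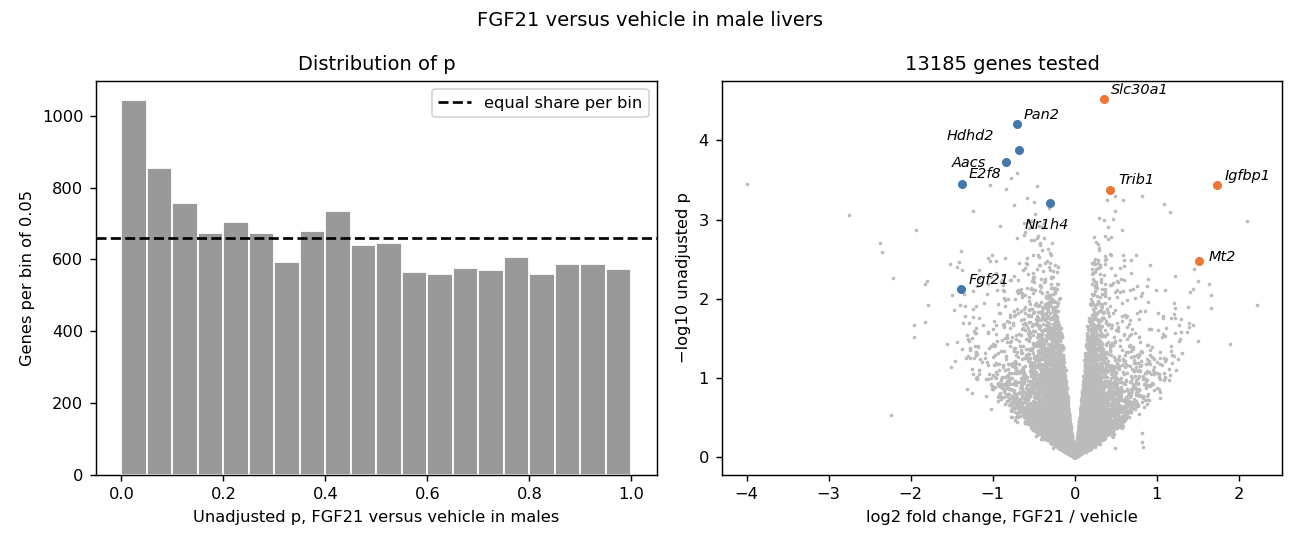
Left, number of genes in each 0.05-wide bin of unadjusted p (x axis) for FGF21 versus vehicle in male livers, with a dashed line at 659 genes, an equal share per bin; right, log2 fold change (x axis) against −log10 unadjusted p (y axis), 1 point per gene, with genes named in the text in orange (higher) and blue (lower). The lowest bin holds 1045 genes, and Slc30a1 has the smallest p.

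The interval of each fold change shows what size of difference these livers leave possible. The median SE was 0.17 on the log2 scale. For 10542 genes (79.95%) the 95% interval lay within a 2-fold difference either way, and for 7660 (58.1%) within a 1.5-fold difference. Only 175 genes had a log2 fold change beyond 1 in either direction, 114 of them with an unadjusted p under 0.05. The median over all genes was -0.0074, and 6388 genes (48.4%) had a higher mean with FGF21. Counts of list members with a higher or lower mean are to be read beside that share.

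Among the 14 tested genes of zinc transport and metallothioneins, 3 had a higher mean with an unadjusted p under 0.05 and 0 a lower one, against 3.2% and 4.73% of all genes, shares that the counts of every list below are to be read beside. The list median was 0.019 against -0.0074 over all genes. All lists were drawn up with earlier results of these livers known, so their counts are descriptions. The 3 higher genes were Slc30a1, Mt1 and Mt2. In textbook accounts they are the standard targets of MTF1, the transcription factor that senses zinc and binds metal response elements. Their upstream sequence is shown because these elements are short and can be read in it. The 250 bases before each RefSeq start site on GRCm38.p6, all on the plus strand, are chr1:191906531-191906780 for Slc30a1, chr8:94172368-94172617 for Mt2 and chr8:94178839-94179088 for Mt1. Capitals mark the core of a metal response element, TGCACNC or TGCGCNC, on either strand.
Slc30a1: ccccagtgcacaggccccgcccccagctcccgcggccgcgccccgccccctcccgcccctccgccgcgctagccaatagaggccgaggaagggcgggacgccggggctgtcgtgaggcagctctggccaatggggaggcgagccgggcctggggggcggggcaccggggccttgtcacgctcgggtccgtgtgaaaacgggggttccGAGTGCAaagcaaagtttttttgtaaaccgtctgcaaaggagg
Mt2: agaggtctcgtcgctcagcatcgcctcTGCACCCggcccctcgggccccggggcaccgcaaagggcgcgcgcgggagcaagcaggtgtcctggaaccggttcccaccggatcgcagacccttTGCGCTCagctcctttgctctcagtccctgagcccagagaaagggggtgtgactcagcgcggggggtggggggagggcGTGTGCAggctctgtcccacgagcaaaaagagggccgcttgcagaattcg
Mt1: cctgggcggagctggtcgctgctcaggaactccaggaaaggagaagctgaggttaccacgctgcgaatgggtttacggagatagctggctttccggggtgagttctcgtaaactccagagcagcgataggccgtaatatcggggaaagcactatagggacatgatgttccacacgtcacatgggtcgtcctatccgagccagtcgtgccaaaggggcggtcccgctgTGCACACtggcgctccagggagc
With the 50 bases after the start included, these windows held 2 matches for Slc30a1, 4 for Mt2 and 3 for Mt1. Of all 32851 RefSeq windows of the same 300 bases, 25.7% held at least 1 match and 7.11% held 2 or more. Of the tested list, 11 genes had a window and 7 held a match. Among these 7, Slc30a10 held 3 matches, as many as Mt1, with p = 0.166 for its level. Slc39a8 held 1, with p = 0.651.

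Slc30a1 lay between 65.4 and 87.6 CPM in the vehicle group (median 75.9) and between 82.2 and 139 CPM in the FGF21 group (median 90.9). All 11 FGF21-treated livers lay above the vehicle median, 8 of them above every vehicle-treated liver, and the ranges overlapped. The means were 76.05 ± 7.90 CPM in vehicle-treated and 97.7 ± 15.96 CPM in FGF21-treated livers (SD, n = 11 each), and the log2 fold change was 0.36 (SE 0.079, 95% interval 0.20 to 0.52, unadjusted p = 2.99e-05, adjusted p = 0.388). It was 0.34 (p = 2.26e-04) without vehicle-treated males 5, 6 and 7 and 0.37 (p = 7.37e-05) without 1, 3 and 8. The gene lies at chr1:191906767-191913247 (GRCm38) and overlaps 1700034H15Rik on the opposite strand, so that without strand-specific counting reads of the pair could not be told apart.

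Mt2 lay between 23.7 and 849.9 CPM in the vehicle group (median 150.0) and between 209 and 2607 CPM in the FGF21 group (median 413). Mt1 lay between 59.7 and 2118 CPM in the vehicle group (median 259) and between 323 and 2616 CPM in the FGF21 group (median 595). Every FGF21-treated liver was above the vehicle median in both genes, but only 3 (males 8, 10 and 11) were above every vehicle-treated liver. Those 3 livers held 2607, 1963 and 1887 CPM of Mt2, whereas the other 8 lay within the vehicle range. In the vehicle group, male 1 alone reached 2118 CPM of Mt1, and male 11 had the most Mt2. The log2 fold change was 1.52 for Mt2 (SE 0.49, p = 0.00336, adjusted p = 0.457) and 0.94 for Mt1 (SE 0.45, p = 0.0411, adjusted p = 0.595). Without vehicle-treated males 5, 6 and 7 the Mt1 value was 0.62 (p = 0.188), and without 1, 3 and 8 it was 1.61 (p = 0.00111). The transcription factor itself, Mtf1, had a log2 fold change of 0.014 (SE 0.12, p = 0.908). The second efflux transporter of the list, Slc30a10, stood at 0.30 (SE 0.21, p = 0.166), and the importers Slc39a14, Slc39a8 and Slc39a4 at -0.14, 0.046 and 0.0058. Mt1 and Mt2 lie side by side at chr8:94179082-94180327 and chr8:94172664-94173568, and Mt2 overlaps Gm45774 on the opposite strand.

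**Figure D3:**
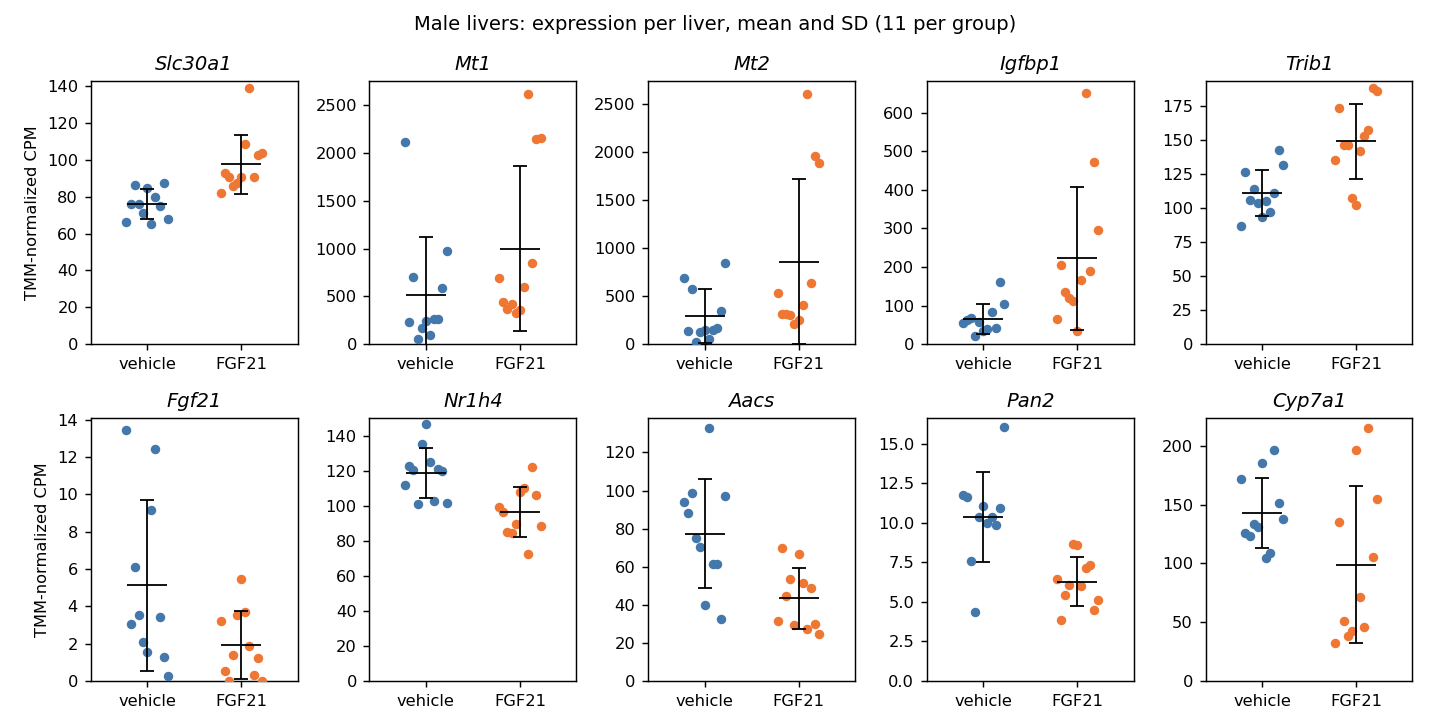
TMM-normalized CPM (y axis, linear from 0) of 10 genes in each of the 22 male livers, vehicle in blue and FGF21 in orange, with the mean as a bar and the SD as whiskers (n = 11 each), which for Mt1 and Mt2 run past the axis. The groups overlap in every panel, and in Mt1 and Mt2 the 3 FGF21-treated livers highest in Igfbp1 lie above every vehicle-treated liver.

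Igfbp1 is made by hepatocytes, is repressed by insulin and is driven by FOXO1. Igfbp1 lay between 20.2 and 160.5 CPM in the vehicle group (median 56.3) and between 32.9 and 650.3 CPM in the FGF21 group (median 167). Of the FGF21-treated livers, 10 of 11 lay above the vehicle median and 6 above every vehicle-treated liver. The 3 highest, at 650.3, 471 and 296 CPM, were again males 8, 10 and 11. The ratio of means in the fit was 3.34-fold, a log2 fold change of 1.74 (SE 0.44, 95% interval 0.84 to 2.64, p = 3.68e-04, adjusted p = 0.388). It stayed positive without each trio of vehicle-treated livers, at 1.57 (p = 0.00371) and 1.77 (p = 0.00165). The gene is at chr11:7197782-7202546.

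Trib1 encodes a pseudokinase that directs the transcription factor C/EBPα to degradation and lowers hepatic lipogenesis when abundant. Trib1 lay between 87.1 and 143 CPM in the vehicle group (median 106) and between 102 and 188 CPM in the FGF21 group (median 147). In 7 of 11 FGF21-treated livers the level was above every vehicle-treated liver, and the other 4 lay within the vehicle range. The means were 111 ± 16.9 CPM in vehicle-treated and 149 ± 27.8 CPM in FGF21-treated livers (SD, n = 11 each), with a log2 fold change of 0.43 (SE 0.11, p = 4.18e-04, adjusted p = 0.388). The other genes with the smallest p among those higher were of mixed function. St3gal1, a sialyltransferase of O-linked glycans, averaged 54.1 ± 6.68 CPM in vehicle-treated and 75.9 ± 23.7 CPM in FGF21-treated livers (log2 fold change 0.49, p = 5.10e-04). Cdc25a, the phosphatase that activates cyclin-dependent kinases, averaged 5.96 ± 1.68 CPM in vehicle-treated and 9.01 ± 2.50 CPM in FGF21-treated livers (log2 fold change 0.59, p = 5.60e-04). Atoh8, a basic helix-loop-helix transcription factor, averaged 5.53 ± 2.10 CPM in vehicle-treated and 9.65 ± 4.04 CPM in FGF21-treated livers (log2 fold change 0.82, p = 5.01e-04). Ttc4, an HSP90 cochaperone, C9orf72, a regulator of autophagy and endosomal traffic, Taok3, a STE20-type kinase, and Fam174b, a membrane protein of few counts, had log2 fold changes of 0.40, 0.49, 0.30 and 1.16, with p from 5.64e-04 to 9.46e-04. Fam174b was measured by at most 11 counts per liver. C9orf72 and Fam174b overlap Gm12367 and A830073O21Rik on the opposite strand. All 10 genes kept an unadjusted p under 0.05 without each trio of vehicle-treated livers. Their choice by the smallest p in the same livers made that likely, so it is no independent support.

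Of the genes with lower means, Pan2 had the smallest p. Pan2 lay between 4.35 and 16.02 CPM in the vehicle group (median 10.4) and between 3.85 and 8.68 CPM in the FGF21 group (median 6.06). Each FGF21-treated liver was below the vehicle median, and 1 was below every vehicle-treated liver, because the lowest vehicle-treated liver reached 4.35 CPM. The means were 10.3 ± 2.84 CPM in vehicle-treated and 6.28 ± 1.56 CPM in FGF21-treated livers (SD, n = 11 each), and the log2 fold change was -0.70 (SE 0.16, p = 6.19e-05, adjusted p = 0.388). Aacs lay between 32.7 and 133 CPM in the vehicle group (median 75.1) and between 24.8 and 69.8 CPM in the FGF21 group (median 44.6). The log2 fold change of Aacs was -0.84 (SE 0.20, 95% interval -1.25 to -0.43, p = 1.87e-04, adjusted p = 0.388), all 11 FGF21-treated livers were below the vehicle median, and 5 lay under every vehicle-treated liver. Pan2 and Aacs lie at chr10:128303335-128321358 and chr5:125475814-125517410. E2f8, a repressor of the cell cycle that governs hepatocyte ploidy, averaged 5.36 ± 3.77 CPM in vehicle-treated and 2.07 ± 1.44 CPM in FGF21-treated livers, with at most 31 counts per liver, and had a log2 fold change of -1.38 (p = 3.51e-04), with Gm2788 on the opposite strand. Ipo5, a carrier of proteins into the nucleus, averaged 15.7 ± 3.08 CPM in vehicle-treated and 11.3 ± 2.10 CPM in FGF21-treated livers and was below every vehicle-treated liver in 8 of 11 FGF21-treated livers (log2 fold change -0.45, p = 3.72e-04). Washc3, of the complex that builds actin on endosomes, and Cystm1, a small transmembrane protein, did so in 7 and 6 livers, with log2 fold changes of -0.59 and -1.03. Slc25a42, the mitochondrial carrier of coenzyme A, stood at -0.78, the ephrin receptor Epha2 at -0.84, Tmem128 at -0.70 and Hdhd2 at -0.68. In these 10 genes all 11 FGF21-treated livers were below the vehicle median, apart from Slc25a42 with 10. The value of E2f8 was -0.91 (p = 0.0135) and that of Hdhd2 -0.45 (p = 0.0116) without vehicle-treated males 5, 6 and 7.

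Of the genes through which FGF21 is sensed, the coreceptor Klb averaged 7.92 ± 1.79 CPM in vehicle-treated and 9.29 ± 2.55 CPM in FGF21-treated livers (log2 fold change 0.23, SE 0.16, p = 0.159). Fgfr1 averaged 7.47 ± 2.47 CPM in vehicle-treated and 6.31 ± 3.12 CPM in FGF21-treated livers (log2 fold change -0.27, p = 0.243) and Fgfr4, in textbook accounts the main FGF receptor of hepatocytes, 7.42 ± 1.76 CPM in vehicle-treated and 7.30 ± 2.27 CPM in FGF21-treated livers (log2 fold change -0.056, p = 0.763). Fgfr2 and Fgfr3 averaged more, 20.8 and 14.8 CPM in vehicle-treated and 18.2 and 13.5 CPM in FGF21-treated livers (p = 0.194 and 0.357). Neither the coreceptor nor these receptors had a p under 0.05. Of the immediate early genes and feedback inhibitors of MAP kinase signaling, Junb, a subunit of the AP-1 transcription factor, had higher values. Junb lay between 54.7 and 309 CPM in the vehicle group (median 91.8) and between 47.3 and 463 CPM in the FGF21 group (median 194). In 10 of 11 FGF21-treated livers it was above the vehicle median, although vehicle-treated male 11, at 309 CPM, exceeded all but 2 of them (log2 fold change 0.92, SE 0.30, p = 0.00379, adjusted p = 0.457). Junb overlaps Prdx2 on the opposite strand. The MAP kinase phosphatases Dusp1, Dusp4 and Dusp6 had log2 fold changes of 0.53 (SE 0.22, p = 0.0225), 1.08 (SE 0.48, p = 0.0281) and 0.33 (SE 0.15, p = 0.0378), and the RAS pathway inhibitor Spred1 0.18 (SE 0.088, p = 0.043). Dusp4 averaged under 1 CPM in both groups. Egr1, the classical early response gene to FGF21, averaged 107 ± 87.1 CPM in vehicle-treated and 97.7 ± 62.4 CPM in FGF21-treated livers, with a log2 fold change of -0.14 (95% interval -0.89 to 0.61, p = 0.711), and Fos, Spry1, Spry2, Spry4 and Etv5 had unadjusted p of 0.468 or more. In all, 5 of 21 genes on this list were higher and 1 lower at an unadjusted p under 0.05, with a median of -0.013, against 3.2% higher and 4.73% lower over all genes. The lower one was Fgf21 itself. Without vehicle-treated males 5, 6 and 7 Dusp1 and Dusp6 stood at 0.49 (p = 0.0559) and 0.32 (p = 0.0762), and without vehicle-treated males 1, 3 and 8 Spred1 stood at 0.17 (p = 0.0901).

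Fgf21 lay between 0.281 and 13.4 CPM in the vehicle group (median 3.44) and between 0 and 5.49 CPM in the FGF21 group (median 1.38). The mouse transcript is distinct from the injected human protein. In 8 of 11 FGF21-treated livers the level was below the vehicle median, with 0 counts in males 3 and 11, and the ranges overlapped widely. The highest vehicle-treated livers were male 1 at 13.4, male 8 at 12.4, male 7 at 9.18 and male 3 at 6.13 CPM, so that 3 of these 4 were the livers at the low end of component 1. The log2 fold change was -1.38 (SE 0.49, 95% interval -2.38 to -0.39, p = 0.00763, adjusted p = 0.466), from at most 40 counts per liver. It was -0.62 (p = 0.23) without vehicle-treated males 1, 3 and 8. Fgf21 lies at chr7:45613886-45615490.

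In de novo lipogenesis, the route from glucose to fatty acids, 1 of 22 genes was higher and 3 were lower at an unadjusted p under 0.05, and the list median was -0.16. The higher one was Mlxipl, which encodes ChREBP, the glucose-responsive activator of lipogenic genes. Mlxipl lay between 72.9 and 175 CPM in the vehicle group (median 137) and between 133 and 252 CPM in the FGF21 group (median 165). Its log2 fold change was 0.32 (SE 0.11, p = 0.00613), and Gm43500 overlaps it on the opposite strand. The lower ones included the desaturase Scd2 at -0.62 (SE 0.26, p = 0.0182) and pyruvate kinase Pklr at -0.23 (SE 0.10, p = 0.0317). Fasn, which builds palmitate, averaged 147 ± 63.2 CPM in vehicle-treated and 145 ± 47.8 CPM in FGF21-treated livers (log2 fold change -0.022, 95% interval -0.49 to 0.45). Srebf1, the insulin-driven activator of these genes, averaged 37.9 ± 15.9 CPM in vehicle-treated and 29.5 ± 9.72 CPM in FGF21-treated livers (log2 fold change -0.36, p = 0.159). Scd1, the main hepatic desaturase, varied from 261 to 6181 CPM among vehicle-treated livers alone, and its log2 fold change of -0.11 (SE 0.45) became 0.93 (p = 0.0372) without vehicle-treated males 1, 3 and 8. In the same setting Scd2, Mlxipl and Pklr stood at -0.10 (p = 0.708), 0.19 (p = 0.0669) and -0.10 (p = 0.358), and Srebf1 at -0.53 (p = 0.0499), against -0.095 (p = 0.718) without males 5, 6 and 7. The list median was 6.1e-04 without those 3 livers and -0.20 without vehicle-treated males 5, 6 and 7.

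Of 24 genes for triglyceride storage and lipid droplets, 1 was lower and 0 were higher at that level (median -0.057). It was G0s2, an inhibitor of the triglyceride lipase ATGL, whose means were 175 ± 92.6 CPM in vehicle-treated and 98.1 ± 73.7 CPM in FGF21-treated livers (log2 fold change -0.83, SE 0.36, p = 0.0289). It stood at -0.66 (p = 0.108) without vehicle-treated males 5, 6 and 7 and at -0.69 (p = 0.0889) without 1, 3 and 8, and the list median was 0.084 in the latter case. The droplet proteins Cidea and Cidec, which mark steatotic liver, had log2 fold changes of -1.17 (SE 0.65, p = 0.0802) and -0.81 (SE 0.47, p = 0.0935). Cidea was measured by at most 27 counts per liver, with medians of 0.399 CPM with vehicle and 0.814 CPM with FGF21. In 6 of 11 FGF21-treated livers it was above the vehicle median. Cidea stood at 1.41 (p = 0.0469) without vehicle-treated males 1, 3 and 8 and at -1.51 (p = 0.0257) without 5, 6 and 7. The lipase Pnpla2 stood at 0.13 (SE 0.11, p = 0.234), and Dgat2, which completes triglyceride synthesis, at -0.072 (SE 0.083, p = 0.387), with a 95% interval of -0.24 to 0.093 on the log2 scale, and at -0.19 (p = 0.0187) without males 1, 3 and 8. Plin2, the main coat protein of hepatic droplets, averaged 430.0 and 426 CPM. Among 23 genes of fatty acid uptake and lipoproteins, 2 were lower and 0 higher (median -0.05). These were the endothelial lipase Lipg, at -0.74 (SE 0.29, p = 0.0167), and the fatty acid transporter and acyl-CoA synthetase Slc27a2, at -0.32 (SE 0.13, p = 0.023). Without vehicle-treated males 5, 6 and 7 they stood at -0.33 (p = 0.266) and -0.10 (p = 0.407). Cd36, the fatty acid translocase, averaged 104 ± 39.9 CPM in vehicle-treated and 88.3 ± 31.5 CPM in FGF21-treated livers (log2 fold change -0.23, p = 0.262).

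In fatty acid oxidation and ketogenesis, 25 of 30 genes had a lower mean (median -0.086), where 48.4% of all genes had a higher one. At an unadjusted p under 0.05, 5 were lower and 0 higher, beside 4.73% lower and 3.2% higher over all genes. Beside Fgf21, which is on this list as a target of PPARα, they included Acadm, the medium-chain acyl-CoA dehydrogenase, at -0.28 (SE 0.11, p = 0.0173), Etfdh, which passes its electrons to ubiquinone, at -0.40 (SE 0.18, p = 0.0341), and the thioesterase Acot1 at -0.56 (SE 0.27, p = 0.0438). Acadm, Etfdh and Acot1 stood at -0.13 (p = 0.266), -0.054 (p = 0.738) and -0.51 (p = 0.0895) without vehicle-treated males 5, 6 and 7. Cpt1a, the gate to mitochondrial oxidation, averaged 394 ± 28.8 CPM in vehicle-treated and 384 ± 42.7 CPM in FGF21-treated livers, with a 95% interval of -0.18 to 0.10 on the log2 scale. Pparg, which is scarce in normal liver and promotes steatosis, averaged 4.98 ± 2.84 CPM in vehicle-treated and 3.72 ± 2.19 CPM in FGF21-treated livers (log2 fold change -0.40, p = 0.189), and its value was -0.079 (p = 0.804) without males 5, 6 and 7.

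Genes of cholesterol synthesis had the lowest median of the 17 pathway lists, -0.27. A lower mean in FGF21-treated males was found in 21 of these 23 genes, where 48.4% of all genes had a higher one. At an unadjusted p under 0.05 3 were lower and 0 higher. These were Fdps, which makes farnesyl diphosphate, at -0.63 (SE 0.27, p = 0.0234), the cyclase Lss, which forms lanosterol, at -0.59 (SE 0.26, p = 0.0322), and Stard4, a carrier of cholesterol between membranes, at -0.27 (SE 0.12, p = 0.025). Fdps lay between 3.41 and 31.8 CPM in the vehicle group (median 16.4) and between 6.69 and 15.1 CPM in the FGF21 group (median 10.4). Every FGF21-treated liver was below the vehicle median, yet none was below the lowest vehicle-treated liver. The epoxidase Sqle stood at -0.47 (SE 0.28, p = 0.101), and the master regulator Srebf2 at -0.081 (SE 0.12, p = 0.504). Without vehicle-treated males 1, 3 and 8 the list median was 0.019 and Fdps, Lss and Stard4 stood at -0.11 (p = 0.66), -0.13 (p = 0.616) and -0.25 (p = 0.0641), whereas without vehicle-treated males 5, 6 and 7 the median was -0.37 and Stard4 stood at -0.22 (p = 0.0887).

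In bile acid synthesis and transport, 3 of 22 genes were lower and 1 higher at an unadjusted p under 0.05 (median -0.011). Nr1h4 encodes FXR, the nuclear receptor for bile acids. Nr1h4 lay between 101 and 146 CPM in the vehicle group (median 120.2) and between 72.1 and 122 CPM in the FGF21 group (median 96.2). In 10 of 11 FGF21-treated livers it was below the vehicle median and in 7 below every vehicle-treated liver (log2 fold change -0.30, SE 0.083, p = 6.26e-04, adjusted p = 0.388). Nr5a2, which encodes LRH-1, an activator of bile acid genes, pointed the other way. Nr5a2 lay between 63.9 and 101 CPM in the vehicle group (median 93.4) and between 81.7 and 121 CPM in the FGF21 group (median 102), with 6 FGF21-treated livers above every vehicle-treated liver (log2 fold change 0.24, SE 0.073, p = 0.00164). Baat, which conjugates bile acids, and Hsd17b4, which shortens their side chain, stood at -0.28 (SE 0.10, p = 0.00654) and -0.26 (SE 0.095, p = 0.00737), and at -0.076 (p = 0.404) and -0.12 (p = 0.213) without vehicle-treated males 5, 6 and 7. The list median was -0.11 without 1, 3 and 8. Cyp7a1 encodes the rate-limiting enzyme of bile acid synthesis. Cyp7a1 lay between 105 and 196 CPM in the vehicle group (median 134) and between 32.2 and 215 CPM in the FGF21 group (median 71.6). The FGF21-treated livers spread to both sides, with 6 below every vehicle-treated liver and 2 at or above the highest. Its log2 fold change was -0.53 (SE 0.28, 95% interval -1.10 to 0.032, p = 0.0636). The small heterodimer partner Nr0b2, an FXR target, stood at 0.15 (SE 0.18, p = 0.407), and Cyp8b1, which adds the 12α-hydroxyl group of cholic acid, at 0.12 (SE 0.12, p = 0.333). Nr1h4 and Cyp7a1 lie at chr10:89454234-89533585 and chr4:6265612-6275633.

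Of 25 genes of glucose and glycogen metabolism, 4 were higher and 2 lower at an unadjusted p under 0.05 (median 0.035). Beside Igfbp1 and Pklr these included Foxo1, the transcription factor that insulin excludes from the nucleus, at 0.24 (SE 0.11, p = 0.0317), the insulin receptor substrate Irs2 at 0.45 (SE 0.21, p = 0.0362) and the glycogen-targeting subunit Ppp1r3g at 1.04 (SE 0.51, p = 0.0469). Foxo1 and Irs2 stood at 0.13 (p = 0.228) and 0.42 (p = 0.0804) without vehicle-treated males 1, 3 and 8, where the list median was -0.081. Irs2 and Ppp1r3g stood at 0.41 (p = 0.0856) and 0.70 (p = 0.178) without 5, 6 and 7. The gluconeogenic enzyme Pck1 averaged 3796 ± 1577 CPM in vehicle-treated and 4725 ± 1429.6 CPM in FGF21-treated livers (log2 fold change 0.32, p = 0.175) and G6pc 117 ± 71.96 CPM in vehicle-treated and 125 ± 56.4 CPM in FGF21-treated livers (log2 fold change 0.10, p = 0.763).

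The list of adiponectin receptors and AMPK, the kinase that senses low energy, had 5 genes higher and 2 lower at an unadjusted p under 0.05 of 19 tested (median 0.066), a share of 36.8% against 7.93% over all genes. Because the list was drawn up with earlier results of these livers known, that share is a description and no independent support. Pde4b, Sirt1 and Adra1b, among the higher genes, are neither adiponectin receptors nor AMPK subunits. Prkab1 lay between 7.60 and 16.3 CPM in the vehicle group (median 11.7) and between 9.35 and 21.3 CPM in the FGF21 group (median 17.1). This β1 subunit of AMPK was above every vehicle-treated liver in 7 of 11 FGF21-treated livers (log2 fold change 0.47, SE 0.14, p = 9.76e-04, adjusted p = 0.409). The γ1 subunit Prkag1 stood at 0.37 (SE 0.12, p = 0.0037), and the catalytic subunit Prkaa2 in the opposite direction at -0.23 (SE 0.11, p = 0.0325). The cAMP phosphodiesterase Pde4b stood at 0.44 (SE 0.13, p = 0.00168), the deacetylase Sirt1 at 0.24 (SE 0.10, p = 0.0258) and the adrenergic receptor Adra1b at 0.23 (SE 0.11, p = 0.0387). Of the receptors, Adipor1 stood at -0.28 (SE 0.091, p = 0.00281), while Adipor2, the main hepatic one, averaged 485 ± 61.7 CPM in vehicle-treated and 481 ± 40.8 CPM in FGF21-treated livers, with a 95% interval of -0.15 to 0.13 on the log2 scale. Prkab1 overlaps Gm14508 on the opposite strand. The values of Prkaa2, Sirt1 and Adra1b were -0.16 (p = 0.17), 0.17 (p = 0.131) and 0.15 (p = 0.196) without vehicle-treated males 5, 6 and 7, and Adra1b stood at 0.20 (p = 0.0947) without 1, 3 and 8.

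The stress genes with the smallest p belong to protein folding in the endoplasmic reticulum. Of 22 stress genes 3 were lower and 0 higher at an unadjusted p under 0.05 (median -0.012). They were Dnajb9, a cochaperone of BiP, at -0.43 (SE 0.12, p = 0.00121), Creld2 at -0.59 (SE 0.26, p = 0.0326) and Hsp90b1 at -0.37 (SE 0.17, p = 0.0339). Dnajb9 reached 193 CPM in a vehicle-treated liver and at most 95.01 with FGF21, under the vehicle median of 96.5. The ATF4 targets Ddit4, Sesn2 and Trib3 stood at 0.55 (SE 0.28, p = 0.0537), 0.39 (SE 0.22, p = 0.0821) and 0.12 (SE 0.20, p = 0.544). Of 23 genes of the mTORC1 pathway, 2 were lower, the nutrient-sensing subunit Seh1l at -0.30 (SE 0.11, p = 0.00896) and the GTPase Rheb at -0.27 (SE 0.11, p = 0.0176) (list median 0.064). Of 21 genes of activin and TGF-β signaling 1 was lower, the type I receptor Tgfbr1, at -0.42 (SE 0.15, p = 0.0067), and the activin receptor Acvr1 stood at -0.33 (SE 0.18, p = 0.0631) (list median -0.067). Leaving out vehicle-treated males 5, 6 and 7 gave -0.55 (p = 0.0698) for Creld2, -0.21 (p = 0.24) for Hsp90b1, -0.15 (p = 0.215) for Rheb, -0.31 (p = 0.056) for Tgfbr1 and -0.11 (p = 0.543) for Acvr1.

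Growth hormone targets and clock genes gave few low p values. Of 28 genes of growth hormone signaling, 1 was lower, the male-biased hydroxylase Cyp4a12a, at -0.66 (SE 0.27, p = 0.0187). Its medians were close, 217.5 CPM with vehicle and 203.9 CPM with FGF21, and 5 of 11 FGF21-treated livers lay above the vehicle median. The highest values were 775 CPM with vehicle and 349 CPM with FGF21. The female-biased Cyp2a4 followed at -1.27 (SE 0.65, p = 0.0566) and stood at 0.67 (p = 0.355) without vehicle-treated males 1, 3 and 8. In that setting the list median was -0.14. A near copy of the first, Cyp4a12b, stood at 0.087 (SE 0.35, p = 0.809), so that reads may have been divided between them (list median -0.0073). Igf1, the main hepatic output of growth hormone, averaged 683 ± 63.1 CPM in vehicle-treated and 649 ± 87.9 CPM in FGF21-treated livers, with a 95% interval of -0.22 to 0.072 on the log2 scale. Of 24 clock genes 1 was higher, Rora, an activator of Arntl, at 0.16 (SE 0.07, p = 0.0245) and, without males 1, 3 and 8, 0.12 (p = 0.105), and Nfil3 stood at 0.61 (SE 0.30, p = 0.0512) (list median 0.017). Of 8 tested genes of the mitochondrial genome 1 was lower, mt-Nd3, a complex I subunit, at -2.76 (SE 0.77, p = 8.70e-04), with mt-Nd2 at 0.17 (SE 0.13, p = 0.189) (list median 0.016). It was measured by at most 20 counts per liver, and vehicle-treated males 5, 6 and 7 held 4.97, 5.12 and 7.98 CPM. Without them its value was -1.55 (p = 0.0549).

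Of 26 acute phase and inflammatory genes, 23 had a higher mean in FGF21-treated males, against 48.4% of all genes, but 0 had an unadjusted p under 0.05. The list median was 0.20, the highest of the pathway lists. Saa1, an apolipoprotein released in inflammation, ranged from 327 to 8786 CPM with vehicle and from 358 to 10158 CPM with FGF21 (log2 fold change 1.12, SE 0.57, p = 0.0582). Males 8, 9, 10 and 11 of the FGF21 group held 7859, 10158, 5078 and 6481 CPM, and vehicle-treated male 1 held 8786, against a vehicle median of 618. Saa4, the constitutive member of the family, stood at 0.31 (SE 0.17, p = 0.0717). Saa1 and Saa2 are near copies, and reads may have been divided between them. Without vehicle-treated males 1, 3 and 8, Saa1 stood at 2.14 (p = 8.35e-04) and the list median at 0.36, and without 5, 6 and 7 they were 0.85 (p = 0.192) and 0.11. Of the 4 FGF21-treated livers high in Saa1, males 8, 10 and 11 were also the highest of their group in Mt1, Mt2 and Igfbp1.

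**Figure D4:**
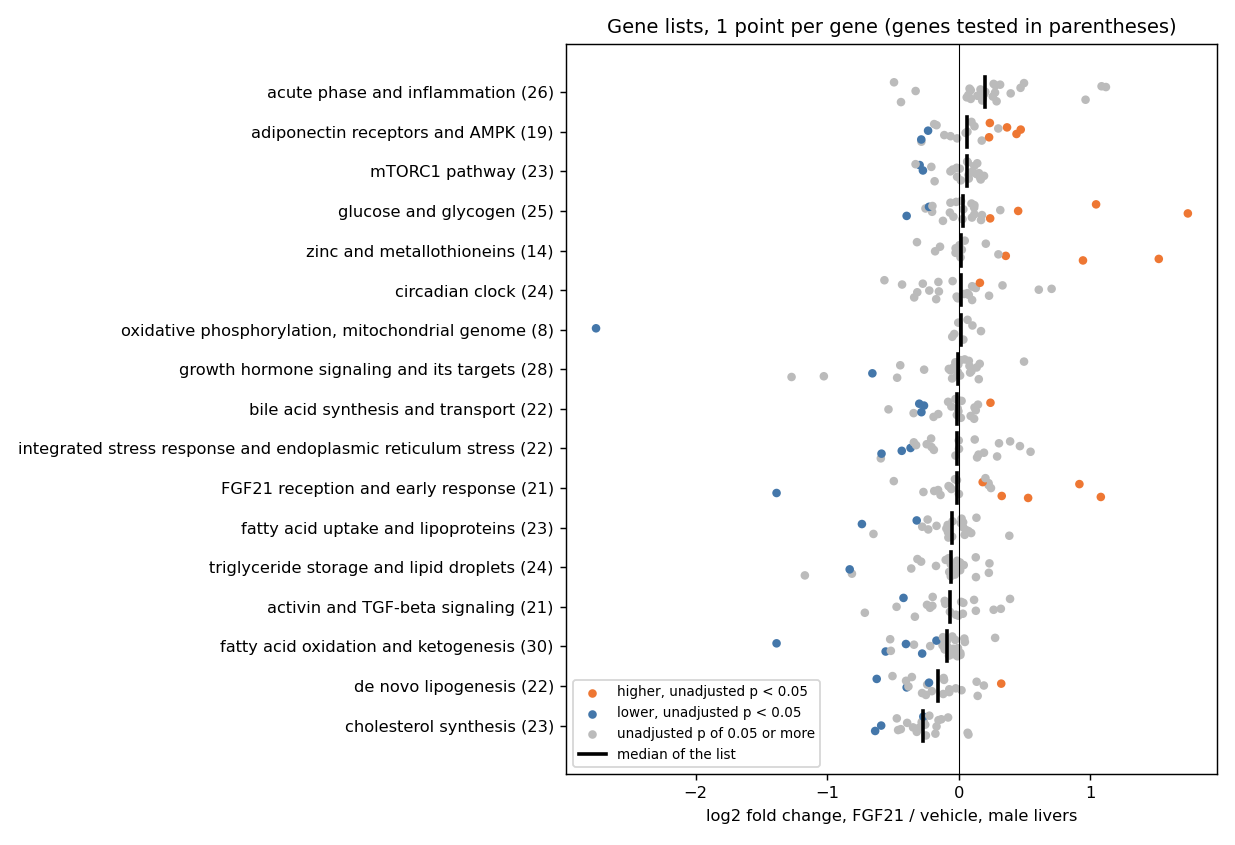
Log2 fold change of FGF21 versus vehicle in male livers (x axis) for each tested member of 17 pathway lists (y axis, number of genes in parentheses), orange or blue where the unadjusted p is under 0.05 and gray otherwise, with a black bar at the list median. Medians run from -0.27 for cholesterol synthesis to 0.20 for the acute phase list, and no gene has an adjusted p under 0.05.

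Over the 17 lists, 366 different genes were tested, and 47 (12.8%) had an unadjusted p under 0.05, 20 higher and 27 lower, against 7.93% of all genes. The lists were drawn up with earlier results of these livers known. Markers of other hepatic cell types were also counted. All 10 Kupffer cell and macrophage markers had a higher mean with FGF21 (median 0.24), against 48.4% of all genes. Of the 10 markers 1, C1qa, had an unadjusted p under 0.05, with a log2 fold change of 0.31 (SE 0.13, p = 0.0239). Their sum ranged from 114 to 246 CPM (median 167) with vehicle and from 132 to 302 CPM (median 198) with FGF21, so that the groups overlapped. In whole liver, a difference in the number of such cells cannot be told apart from one in RNA per cell. Of 9 stellate cell and fibroblast markers 7 had a lower mean and 0 an unadjusted p under 0.05 (median -0.34), with the collagen Col1a2 at -0.44 (SE 0.26, p = 0.0996). Spp1, a cholangiocyte marker also made by other cells, stood at -0.64 (SE 0.23, p = 0.00887), while Sox9 and Epcam, the other tested markers of those cells, stood at 0.12 (SE 0.12, p = 0.329) and -0.29 (SE 0.46, p = 0.526). The leukocyte genes S100a8 and S100a9 stood at -0.51 (SE 0.50, p = 0.318) and -0.48 (SE 0.50, p = 0.34), and Ptprc, the common leukocyte antigen, at -0.38 (SE 0.19, p = 0.0468). The 9 hepatocyte and 9 endothelial markers had medians of 0.02 and 0.03, the 4 tested adipocyte markers -0.10 and the 5 of red blood cells 0.082. Lep was at 0 in all 22 livers. The part of these cell types in the list values was not tested.

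The values in males can be set beside those in DIO females given the same doses (9 with FGF21, 10 with vehicle). Of all tested genes, 52.3% had a fold change of the same sign in both sexes, and of the 1045 genes with an unadjusted p under 0.05 in males 582 (55.7%) did. Among the 20 genes with the smallest p in males, 10 had the same sign in females. Since these 20 were chosen by their male values, the comparison describes them. In females Slc30a1 had a log2 fold change of -0.07 (SE 0.084) (treatment × sex interaction p = 4.51e-04), Pan2 0.19 (SE 0.17) (p = 2.97e-04), Hdhd2 0.21 (SE 0.18) (p = 5.46e-04) and Tmem128 0.23 (SE 0.20) (p = 9.23e-04). Mt2 stood at -0.16 (SE 0.51) in females (interaction p = 0.0226). By contrast, Igfbp1 stood at 1.36 (SE 0.48) (interaction p = 0.559), Trib1 at 0.22 (SE 0.12) (p = 0.222), Epha2 at -0.58 (SE 0.27) (p = 0.461) and Fgf21 at -2.45 (SE 0.64) (p = 0.206), each with the sign it had in males. Pde4b, at 0.44 in males, stood at 0.91 (SE 0.13, adjusted p = 7.93e-05, edgeR) in females (interaction p = 0.0158). For the interaction, 572 genes (4.34%) had an unadjusted p under 0.05 and 0% an adjusted p under 0.05, the smallest being 0.99 (edgeR), so that no difference between the sexes passed the test over all genes.

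**Figure D5:**
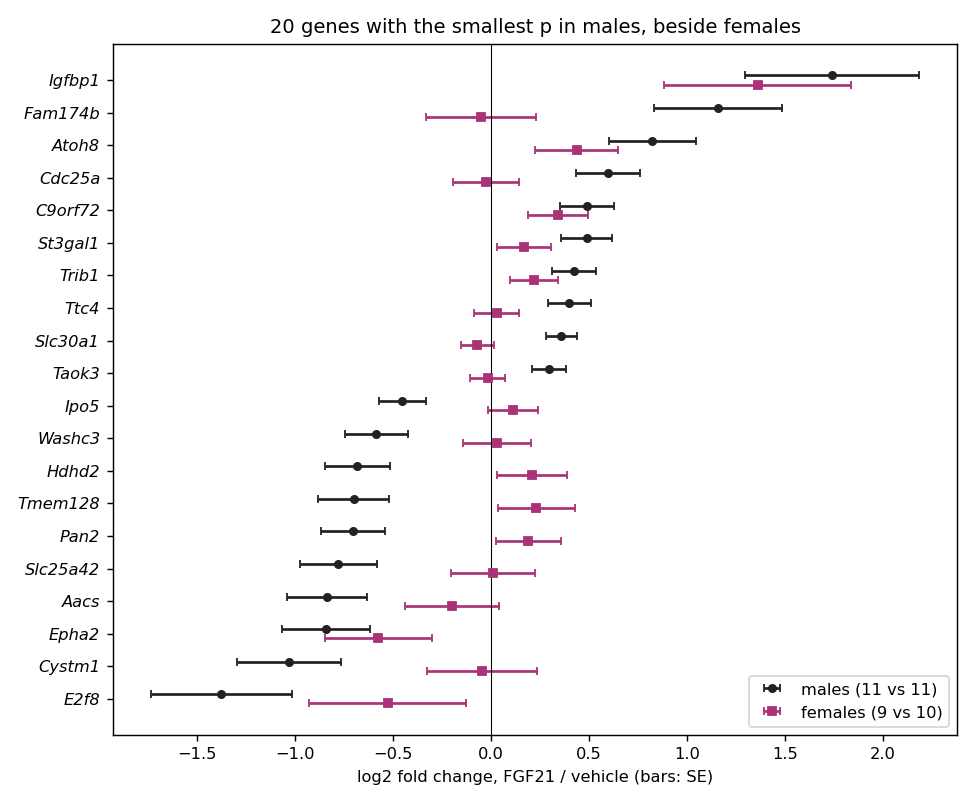
Log2 fold change of FGF21 versus vehicle (x axis, bars are the SE) in males (black circles, 11 against 11) and females (purple squares, 10 vehicle and 9 FGF21) for the 20 genes with the smallest p in males, 10 in each direction (y axis). Of the 20, 10 lie on the same side of 0 in both sexes, among them Igfbp1, Trib1, Epha2 and E2f8.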

How the data were processed

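Hepatic mRNA of 22 DIO males was measured by 3′-end RNA-Seq (QuantSeq FWD), which reads the end of each transcript, so that a count does not grow with gene length. The authors measured the share of ribosomal RNA with Bowtie2 2.3.4.1, trimmed the reads, aligned to GRCm38 with STAR 2.6.0c and a GENCODE annotation, and deposited the raw count of reads per gene without normalization. The kit adds molecular identifiers, but whether reads were merged by them, or counted by strand, is not given in the sources used here. Deposited normalized tables were not used.

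Groups came from the sample labels. A mean CPM of 0.5 or more over the 41 livers was required, and the counts were fitted with edgeR 4.0.16 (TMM, robust quasi-likelihood, 1 coefficient per sex and treatment, R 4.3.3), with p adjusted over all 13185 genes (Benjamini-Hochberg, 0.05). Single-gene p values come from it. CPM are TMM-normalized, and errors of means are SD. Intervals are 95% from the same model. Depth was about the same in both groups and limits precision for genes of few counts. Alternatives used limma 3.58.1, DESeq2 1.42.0 and sva 3.50.0, other filters and scalings, and the omission of each liver, and the fit was checked on simulated data. Nothing in the labels states that litters or days were shared, and p values measure the spread between mice.

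Positions are from GENCODE M21 on GRCm38, and promoter windows from RefSeq GRCm38.p6. The members and gene lists were chosen with earlier results of these data known. Genes named are the 10 with the smallest p in each direction, leaving out unnamed gene models (1 in each direction), the 2 of smallest p in each list, the leading genes of each component and 20 genes of fixed role. Some of these genes and list members are not reported here. Other list and marker genes given with values were chosen after their values were seen.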

Additional observations from a re-analysis of the deposited data

How the results depend on the processing

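The count of genes with an adjusted p under 0.05 was 0 under every alternative run except the replicate block, with which it was 1 (Trib1, log2 fold change 0.42, adjusted p = 0.0306). The labels do not say that the replicate numbers pair the mice. Deviations of same-numbered livers correlated at -0.029 to 0.27 over 11 pairs, 3 of them over 0.1. Of the FGF21-treated livers, 3 correlated best with their own number. Whether the numbers stand for shared litters or days was not tested. The block gave 1080 genes at an unadjusted p under 0.05. That count was 1773 of 22751 genes with no filter, 690 without vehicle-treated males 5, 6 and 7, 721 with 2 surrogate variables and 859 to 1343 with 1 liver left out. The exclusions of 3 vehicle-treated livers were chosen after seeing the data and took livers from the vehicle group only. Of 2688 values of 77 named genes, 2639 kept their direction with an adjusted p above 0.05, 1 was the Trib1 value with the block, and 48, in 17 genes, reversed. Of the settings, 22 left out 1 liver and shared all others with the main fit, and many of the genes were chosen by their male p. A kept direction was therefore likely in advance.

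The log2 fold changes that reversed were, without vehicle-treated males 1, 3 and 8, Cidea 1.41, Cyp2a4 0.67, Fasn 0.24, Scd1 0.93, Cpt1a 0.012, Cd36 0.025, G6pc -0.11, Mup7 -0.026, Mup11 -0.067 and Ly6d 0.95. With 2 surrogate variables they were Cidea 0.38, Srebf1 0.024, Fasn 0.011, Scd1 0.73, Cd36 0.13, Pparg 0.20, Mup7 -0.14, Mup11 -0.35 and Sucnr1 0.12. Under limma-voom, without and with quality weights, they were Fasn 0.017 and 0.085, Scd1 0.22 and 0.31 and Hsd3b5 0.55 and 0.36, and with weights Adipor2 0.0036. With the block they were Fasn 0.0099 and Scd1 0.20. With 1 liver left out, values spanned -0.13 to 0.021 for Fgfr4, -0.35 to 0.21 for Egr1, -0.10 to 0.11 for Fasn, -0.23 to 0.18 for Scd1, -0.013 to 0.31 for G6pc, -0.039 to 0.021 for Adipor2, -0.54 to 0.065 for Hsd3b5 and -0.031 to 0.64 for Mup11. The difference on component 3 was -1.01 with the 500 most variable genes. Component 2 kept its direction in that setting, with a difference of 6.73 (p = 0.0241, adjusted p = 0.0722, permutation test). The medians of total count and of genes detected were higher with FGF21, by 5997 and 154, where the means were lower. The cause of these reversals was not tested. Depth limits Fgf21, E2f8, mt-Nd3, Cidea and Fam174b, each at under 50 counts per liver.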

Other observations

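Genes that led component 1 varied widely among vehicle-treated livers. Hsd3b5 stood at 0, 0.292 and 0.345 CPM in vehicle-treated males 1, 3 and 8 and at 18.8 CPM or more in the other vehicle-treated males. Males 1, 5 and 7 of the FGF21 group held 0.585, 2.89 and 2.75 CPM, and the rest 18.5 CPM or more. Mup7, a pheromone-binding urinary protein, ranged from 10.8 to 510.1 CPM with vehicle and from 32.1 to 718 CPM with FGF21, and the Mup genes are near copies whose reads may have been divided. Ly6d, a surface antigen, pointed the other way on this component. It held 80.7, 17.5 and 31.1 CPM in vehicle-treated males 1, 3 and 8 and at most 2.05 CPM in the other vehicle-treated males. The same 3 livers held 3 of the 4 highest Fgf21 values of the vehicle group.

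Component 3 was led by Igfbp1, Mt2, Saa2, Mt1 and Saa1, genes that fasting, glucocorticoids or inflammation are known to raise. FGF21-treated males 8 and 2 had its highest scores, 33.4 and 30.6, but male 2 held 312 CPM of Mt2 and 753 CPM of Saa1, whereas male 8 held 2607 and 7859 CPM. Male 2 had the lowest total count of the 22 livers, 1902687. Cxcl1, a neutrophil chemokine, ranged from 12.8 to 432 CPM with vehicle and from 18.2 to 412 CPM with FGF21 (log2 fold change 0.96, SE 0.55, p = 0.0887). Snrpf, a core protein of spliceosomal snRNPs, which led component 2, ranged from 1.19 to 21.5 CPM with vehicle and from 0 to 8.36 CPM with FGF21 (log2 fold change -1.37, p = 0.00429), and stood at -0.83 (p = 0.0863) without vehicle-treated males 5, 6 and 7. What these livers shared was not tested.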
